A study of Homo sapiens with 6 samples.

Results

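Sterol regulatory element-binding proteins (SREBPs) switch on the genes of cholesterol and fatty acid synthesis, and these genes were examined in macrophages made from the human leukaemia line THP-1. The set holds 33 genes, taken by name from the 35009 genes of the deposited table, where each name has 1 row. It comprises 20 enzymes of sterol synthesis, 6 regulators of the SREBP system and 7 enzymes of fatty acid synthesis, elongation and desaturation. Both groups of libraries come from THP-1 cells treated with oxidised low-density lipoprotein (ox-LDL). The oxldl_siMCT4 group (3 libraries) has the genotype MCT4 deficiency, and the oxldl group (3 libraries) the genotype control. MCT4, encoded by SLC16A3, exports lactate from glycolytic cells. The labels name no control siRNA for the oxldl cells, so an effect of MCT4 loss and one of transfection cannot be told apart. Nor do they describe replicates as independent cultures, and p-values therefore measure only the spread between these samples.

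Cells make cholesterol from acetyl-CoA through mevalonate, farnesyl diphosphate, squalene and lanosterol, and they make fatty acids from the same precursor by carboxylation and chain extension. SREBP2 (gene SREBF2) acts mainly on the sterol genes and SREBP1 (gene SREBF1) mainly on the fatty acid genes. The escort protein SCAP and the retention protein INSIG1 hold both in the endoplasmic reticulum while sterols are plentiful, and proteases cut them free when sterols run short. Macrophages that take up modified lipoprotein store its cholesterol as esters and become foam cells.

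Total counts ran from 61880619 to 69103124 in oxldl_siMCT4 libraries and from 65010219 to 69181938 in oxldl libraries. SLC16A3 had 691, 768 and 949 counts in oxldl_siMCT4 libraries 1, 2 and 3, against 7708, 6428 and 6848 counts in oxldl libraries 1, 2 and 3. The groups do not overlap, and p was 0.1 in an exact permutation test on CPM (two-sided), the smallest that 3 against 3 libraries can give. All 11 myeloid markers examined were tested, with a summed level of 1323 to 1433 FPKM in oxldl_siMCT4 and 1505 to 1553 FPKM in oxldl libraries (FPKM is fragments per kilobase of gene and 1000000 fragments). Of the 11, 6 fell, among them CSF1R and CD14, and CD68 and SPI1 were not called. Among all genes tested 20.8% were called lower by the test described below. Of 3 hepatocyte markers, ALB and TTR were near 0, with at most 0.281 FPKM on average in oxldl_siMCT4 and 0.111 FPKM in oxldl libraries, and APOA1 averaged 12.7 FPKM in oxldl_siMCT4 and 16.4 FPKM in oxldl libraries. The part of these markers in the changes below was not tested. The 3 oxldl_siMCT4 libraries differed among themselves in genes of high GC content. In the 394 genes of 64% GC or more with a mean log2 CPM above 2, the median log2 ratio to the oxldl mean was -1.02 and -1.11 in libraries 1 and 2 and -0.20 in library 3. SLC16A3 has 65.6% GC, and its log2 change was -3.20 (adjusted p = 1.12e-06) and, with a correction for GC content, -2.41 (adjusted p = 1.82e-05), both from the edgeR test. SPI1, also of 65.6% GC, was not called (log2 change -0.02, adjusted p = 0.941), but was called higher with the correction (0.70, adjusted p = 0.000137). MVD, FASN and SREBF1, of 63.9%, 65.3% and 63.3% GC, are given below with and without these libraries.

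The promoters of the set are described first, since SREBPs switch on genes of sterol and fatty acid synthesis. Which of the 33 genes they act on in these cells was not tested. RefSeq promoter sequences (GRCh38.p14) matched 29 of the 33 genes, and ACAT2, FASN, FDFT1 and SQLE were not matched. The 250 bases before each start were searched on both strands for TCACNCCAC, the core of the sterol regulatory element, and for CCAAT, which NF-Y, a partner of SREBPs, binds. TCACNCCAC was found before 1 of the 29 genes, SREBF2, 133 bases before the start, and in 0.875% of 27305 promoters of the same length. CCAAT, which reads ATTGG on the other strand, was found before 12 of 17 sterol enzymes (70.6%), 3 of 6 regulators (50%) and 2 of 6 fatty acid enzymes (33.3%). It was found in 33% of all promoters. The most CCAAT matches, 5 each, lay before MVK and NSDHL, neither of which was called in the test below. CACGTG and GGGCGG, searched in the same way, were present before 3 (10.3%) and 24 (82.8%) of the 29 genes, and in 6.49% and 42.3% of all promoters. None of the 4 motifs contains another. The sequences printed are SREBF2 (chr22:41832855-41833104), which holds the TCACNCCAC match, MSMO1 (chr4:165327419-165327668), which has more CCAAT matches (4) than any other gene of the set that fell and was matched, and SCD (chr10:100346983-100347232), the fatty acid gene that fell and was matched. They are read 5′ to 3′ along the + strand, with TCACNCCAC and CCAAT matches in capitals.
SREBF2: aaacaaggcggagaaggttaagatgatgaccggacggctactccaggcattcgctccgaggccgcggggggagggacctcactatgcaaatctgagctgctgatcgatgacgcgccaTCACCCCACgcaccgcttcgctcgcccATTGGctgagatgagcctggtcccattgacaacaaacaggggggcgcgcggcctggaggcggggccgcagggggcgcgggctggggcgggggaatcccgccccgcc
MSMO1: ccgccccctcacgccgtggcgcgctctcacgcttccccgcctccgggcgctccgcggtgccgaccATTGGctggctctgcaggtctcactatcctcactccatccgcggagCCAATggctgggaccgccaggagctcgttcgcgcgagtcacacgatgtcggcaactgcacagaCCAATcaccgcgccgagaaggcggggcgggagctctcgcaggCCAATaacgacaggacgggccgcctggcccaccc
SCD: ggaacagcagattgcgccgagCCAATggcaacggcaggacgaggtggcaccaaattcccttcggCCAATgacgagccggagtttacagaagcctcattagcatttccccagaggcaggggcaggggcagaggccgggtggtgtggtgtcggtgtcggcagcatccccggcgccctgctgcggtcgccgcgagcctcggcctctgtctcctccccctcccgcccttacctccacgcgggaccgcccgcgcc
A match is a description of the letters and does not show that a factor binds there. Nor does a missing match show that an element is absent, since only these strings, close before a single start per gene, were sought. For some genes that RefSeq start lies away from the start of the gene as deposited. For IDI1, on the - strand, the bases searched were chr10:1056705-1056954, while the deposited gene runs from 1039152 to 1049103. For ACLY they lay inside the deposited gene.

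In oxldl_siMCT4 libraries 13 of the 20 sterol enzymes fell, while 7 did not pass the test. Of the 7 fatty acid enzymes 2 fell, 1 rose and 4 did not pass, and of the 6 regulators 3 fell and 3 did not pass. Genes were called at an adjusted p under 0.05 over all 19944 genes tested, by edgeR's quasi-likelihood test on counts with the Benjamini-Hochberg adjustment, which gives every adjusted p below unless another tool is named. Of all genes tested, 41.4% were called, 20.8% lower and 20.6% higher. The number of sterol enzymes called higher was 0, also by DESeq2 and at an unadjusted p under 0.05. For the regulators it was 0 as well, but 1 (SREBF1) by DESeq2 and at an unadjusted p under 0.05. All 33 genes passed the filter on low counts. CPM (counts per 1000000 counts, TMM-scaled) did not overlap between the groups for 13 of 20 sterol enzymes, all of them lower in oxldl_siMCT4, where 27.8% of all genes tested lay wholly below. The groups also did not overlap for 4 of 6 regulators and 3 of 7 fatty acid enzymes, against 55% of all genes tested in either direction and 27.2% wholly above.

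The median log2 change was -0.54 for the sterol enzymes, -0.17 for the regulators and -0.03 for the fatty acid enzymes, beside -0.01 over all genes tested. With limma on log2(TPM + 1), where TPM is transcripts per 1000000 and the median of all genes is 0.11, those medians were -0.33, 0.04 and 0.16. The sterol median was thus below that of all genes on either scale, while the sign for the regulators and the fatty acid enzymes differed between these analyses, which differ in scaling, test and filter. The fatty acid median was also above 0 by limma on log2(FPKM + 1) (0.06) and without oxldl_siMCT4 replicate 3 (0.04). The sterol median minus the fatty acid median was -0.51 on the log2 scale, and -0.47, -0.51 and -0.39 in oxldl_siMCT4 libraries 1, 2 and 3. It has no p, because the genes were chosen with results known. In bulk RNA, fewer cells of a kind and less RNA per cell cannot be told apart.

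**Figure D1:**
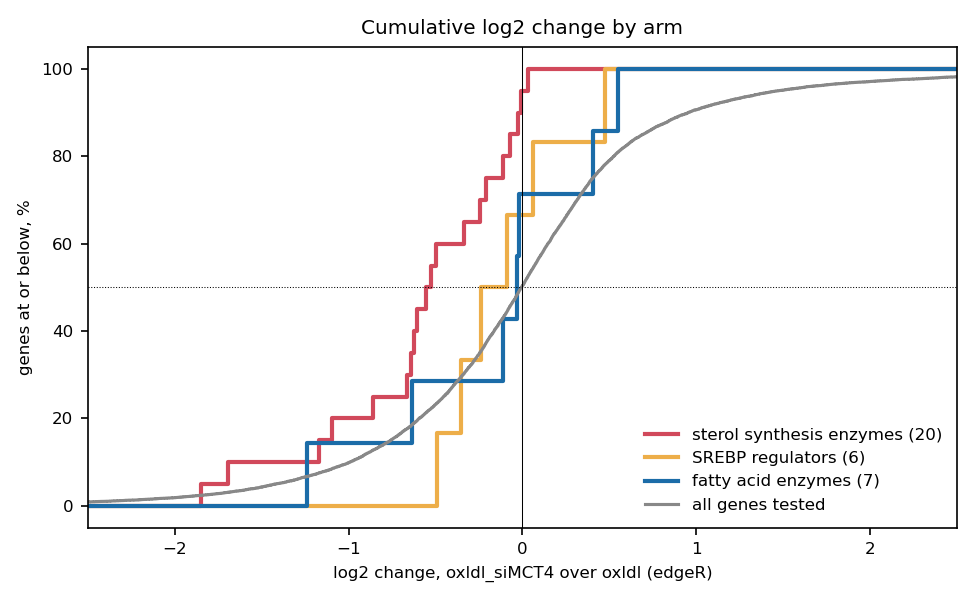
Share of genes in % (vertical axis) at or below each log2 change of oxldl_siMCT4 over oxldl (horizontal axis, edgeR), for 20 sterol enzymes, 6 regulators, 7 fatty acid enzymes and all 19944 genes tested. The sterol curve lies to the left, with a median of -0.54, while the median of the fatty acid enzymes is -0.03, near that of all genes (-0.01).

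The mevalonate pathway turns acetyl-CoA into the isoprenoid units of sterols, and of its 8 genes ACAT2, HMGCS1, MVD and FDPS fell and 4 did not pass. HMGCS1, which makes HMG-CoA (ENSG00000112972, GRCh38 chromosome 5, 43287470 to 43313512), had 104, 103 and 95.6 CPM in oxldl_siMCT4 libraries 1, 2 and 3, against 141, 146 and 148 CPM in oxldl libraries 1, 2 and 3. The groups do not overlap, and the log2 change was -0.53 (SE 0.0498, adjusted p = 0.000162). ACAT2, which joins acetyl-CoA units at the entry of the pathway, had 64.7, 67.6 and 50.3 CPM in oxldl_siMCT4 libraries, against 89.2, 99.5 and 96.1 CPM in oxldl libraries. Its library 3 was the lowest, and the log2 change was -0.64 (SE 0.111, adjusted p = 0.00299). FDPS, which makes farnesyl diphosphate, had 70.5, 73.4 and 62.8 CPM in oxldl_siMCT4 libraries, against 102, 107 and 110 CPM in oxldl libraries. Its groups do not overlap either (log2 change -0.63, SE 0.0682, adjusted p = 0.000321). Of the genes named here ACAT2 overlaps TCP1, and FDPS overlaps RUSC1-AS1, on the opposite strand, and how the counting used strand is unknown here. Of the sterol enzymes given later, MVK overlaps MMAB and CYP51A1 overlaps AKAP9 on the opposite strand. GGPS1 overlaps TBCE on the same strand and ARID4B on the opposite strand. ARID4B had 7553, 7938 and 9797 counts in oxldl_siMCT4 libraries, against 5888, 5364 and 5406 counts in oxldl libraries. Part of the counts of MVK, CYP51A1 and GGPS1 is likewise uncertain.

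MVD, the decarboxylase that forms isopentenyl diphosphate (ENSG00000167508, GRCh38 chromosome 16, 88651935 to 88663161), had 5.90, 4.57 and 13.3 CPM in oxldl_siMCT4 libraries 1, 2 and 3, against 24.1, 27.2 and 25.7 CPM in oxldl libraries. All oxldl_siMCT4 values lie below all oxldl values, but library 3 stands apart from libraries 1 and 2. The log2 change was -1.69 (SE 0.367, adjusted p = 0.00834). Without oxldl_siMCT4 replicate 3 it was -2.27 (adjusted p = 4.45e-06), and with a correction for GC content -1.23 (adjusted p = 0.00241). For library 3 alone against the oxldl libraries it was -0.93, a value with no spread of its own, so the size of the fall varied between libraries. The kinases MVK and PMVK did not pass, with log2 changes of -0.11 and -0.25 (adjusted p = 0.553 and 0.192). The isomerase IDI1 had 108, 101 and 112 CPM in oxldl_siMCT4 libraries and 108, 106 and 113 CPM in oxldl libraries, which overlap (log2 change -0.03, SE 0.0554, adjusted p = 0.748). GGPS1, which branches off to geranylgeranyl diphosphate, had a log2 change of 0.03 (SE 0.0494, adjusted p = 0.658), though limma on TPM values called it higher (0.23, adjusted p = 0.0113).

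Of the 3 genes between farnesyl diphosphate and lanosterol, FDFT1 and SQLE fell and LSS did not pass. SQLE, squalene epoxidase, a rate-limiting enzyme of the sterol branch (ENSG00000104549, GRCh38 chromosome 8, 124998497 to 125022283), had 558, 562 and 661 CPM in oxldl_siMCT4 libraries 1, 2 and 3, against 1370, 1340 and 1290 CPM in oxldl libraries. Every oxldl_siMCT4 library lay far below every oxldl library, and the change was 0.445-fold (log2 change -1.17, SE 0.0715, adjusted p = 1.94e-05). FDFT1, the squalene synthase that commits farnesyl diphosphate to sterols, had 119, 122 and 106 CPM in oxldl_siMCT4 libraries, against 197, 215 and 214 CPM in oxldl libraries. The spread within its groups is small beside the gap (log2 change -0.86, SE 0.0667, adjusted p = 6.16e-05). LSS, which closes squalene epoxide into lanosterol, had 46.8, 41.6 and 38.1 CPM in oxldl_siMCT4 libraries, against 40.2, 45.5 and 41.5 CPM in oxldl libraries. These values overlap (log2 change -0.01, SE 0.089, adjusted p = 0.951).

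Between lanosterol and cholesterol 7 of 9 genes fell and 2 did not pass. DHCR7, the reductase of the last step to cholesterol (ENSG00000172893, GRCh38 chromosome 11, 71428193 to 71452868), had 8.99, 6.82 and 6.94 CPM in oxldl_siMCT4 libraries 1, 2 and 3, against 27.0, 26.9 and 27.9 CPM in oxldl libraries. Its log2 change of -1.85 (SE 0.121, adjusted p = 2.74e-05) was the lowest of the 33 genes in this test, and it ran from -1.96 to -1.15 over the 18 alternative settings, the highest on log2(FPKM + 1), which understates changes of low genes. MSMO1, the methyl sterol oxidase (ENSG00000052802, GRCh38 chromosome 4, 165327667 to 165343164), had 105, 104 and 126 CPM in oxldl_siMCT4 libraries, against 238, 243 and 235 CPM in oxldl libraries. The groups are far apart, a 0.467-fold change (log2 change -1.10, SE 0.0777, adjusted p = 3.91e-05). CYP51A1, the lanosterol demethylase, had 147, 145 and 174 CPM in oxldl_siMCT4 libraries, against 243, 238 and 231 CPM in oxldl libraries (log2 change -0.61, SE 0.0744, adjusted p = 0.000556). SC5D, a sterol desaturase, had 60.2, 55.3 and 69.2 CPM in oxldl_siMCT4 libraries, against 90.8, 90.8 and 89.6 CPM in oxldl libraries (log2 change -0.55, SE 0.0815, adjusted p = 0.00139). In these last 3 genes library 3 was the highest of the oxldl_siMCT4 libraries and still below every oxldl library.

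The other falls of this stretch were less firm. EBP, the sterol isomerase, had 30.3, 29.9 and 20.1 CPM in oxldl_siMCT4 libraries, against 43.6, 37.4 and 46.3 CPM in oxldl libraries (log2 change -0.67, SE 0.164, adjusted p = 0.0144). Its groups do not overlap, but the call was lost without oxldl replicate 1 (adjusted p = 0.0521) or 3 (adjusted p = 0.0581). HSD17B7, a ketosteroid reductase of sterol demethylation, had 9.54, 8.26 and 7.09 CPM in oxldl_siMCT4 libraries, against 10.9, 10.6 and 13.7 CPM in oxldl libraries (log2 change -0.50, SE 0.156, adjusted p = 0.0378). The groups lie close together, and the call was lost without oxldl_siMCT4 replicate 2 (adjusted p = 0.112) or 3 (0.0775) and without oxldl replicate 1 (0.068), 2 (0.0547) or 3 (0.121). Its pseudogene HSD17B7P2 had 126 to 189 counts in oxldl_siMCT4 and 137 to 201 counts in oxldl libraries, and the split of reads between them is uncertain. LBR, a sterol reductase that is also a protein of the nuclear envelope, had 123, 120 and 138 CPM in oxldl_siMCT4 libraries, against 151, 145 and 144 CPM in oxldl libraries (log2 change -0.21, SE 0.0613, adjusted p = 0.0277). Library 3 is near the oxldl values, though below each of them. LBR was not called without oxldl_siMCT4 replicate 1 (adjusted p = 0.13) or 2 (0.131), or without oxldl replicate 1 (0.133), 2 (0.103) or 3 (0.07). Over all 18 alternative settings EBP lost its call in 4, HSD17B7 in 11 and LBR in 12.

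TM7SF2, which encodes another reductase for the same step as LBR, did not pass (log2 change -0.34, SE 0.21, adjusted p = 0.242), nor did NSDHL, a dehydrogenase of sterol demethylation (-0.07, SE 0.0685, adjusted p = 0.435). TM7SF2 overlaps VPS51 on the same strand, so its reads are uncertain. Of the 13 sterol enzymes called lower, 10 were called lower in all 18 alternative settings, of which the one with library 3 alone takes its spread from the oxldl libraries. They are ACAT2, HMGCS1, MVD, FDPS, FDFT1, SQLE, CYP51A1, MSMO1, SC5D and DHCR7, which span the pathway from its entry to its last step.

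**Figure D2:**
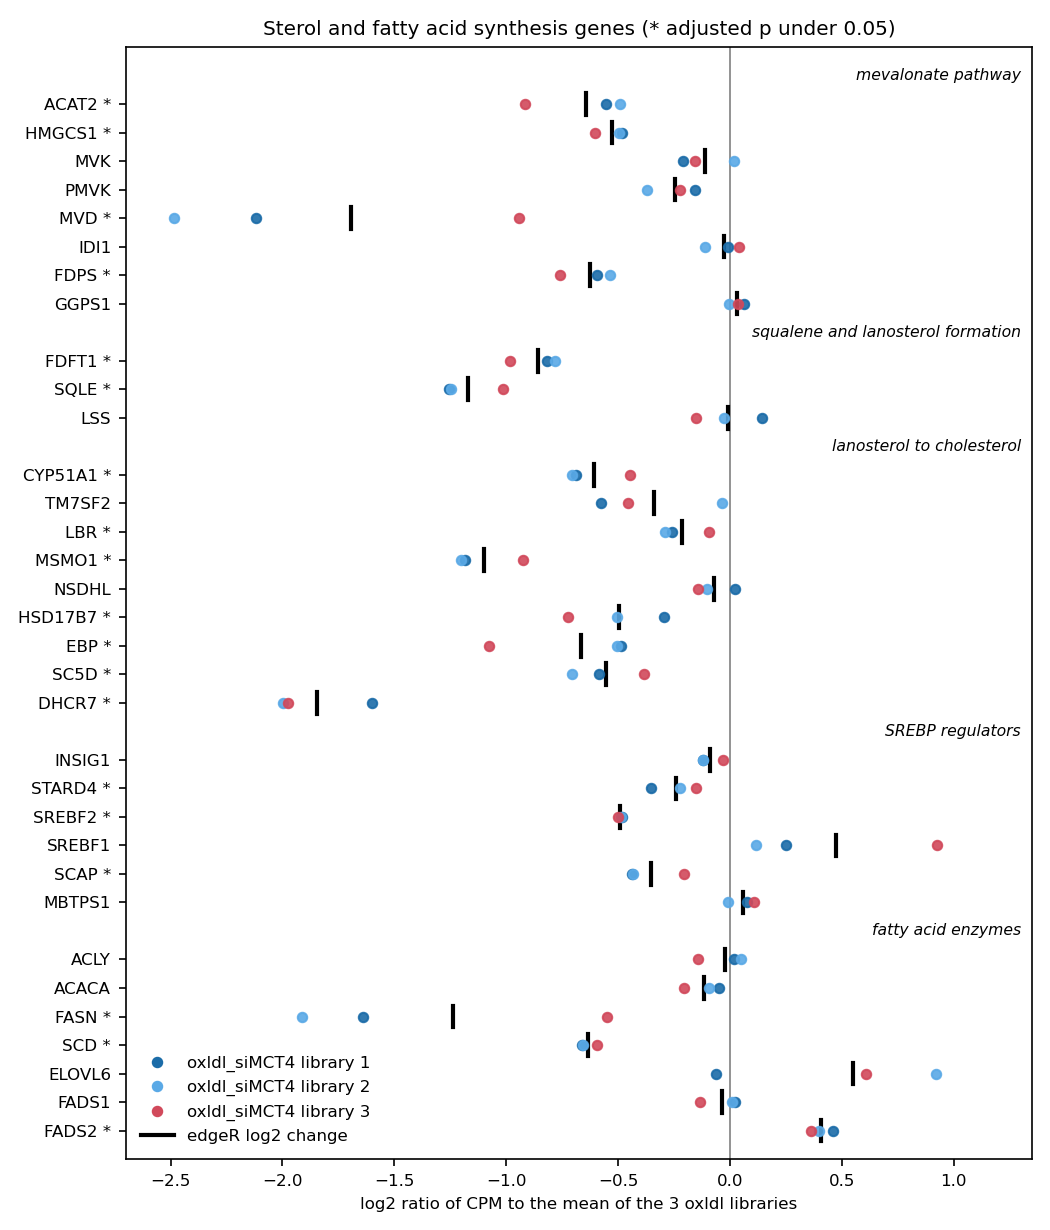
Log2 ratio of CPM in each oxldl_siMCT4 library to the mean of the 3 oxldl libraries (points, horizontal axis) for the 33 genes by role (vertical axis); black bars give edgeR's log2 change and asterisks an adjusted p under 0.05. The points of SQLE and MSMO1 all lie between -1.26 and -0.93, whereas library 3 stands to the right of libraries 1 and 2 in MVD, FASN and SREBF1.

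Of the genes that encode the SREBPs, SREBF2 fell, while SREBF1 was higher in every oxldl_siMCT4 library but did not pass the test. SREBF2 (ENSG00000198911, GRCh38 chromosome 22, 41833079 to 41907307) had 210, 210 and 208 CPM in oxldl_siMCT4 libraries 1, 2 and 3, against 303, 302 and 275 CPM in oxldl libraries. The groups are clearly separate, and the log2 change was -0.49 (SE 0.0495, adjusted p = 0.000223). SREBF1 (ENSG00000072310, GRCh38 chromosome 17, 17810399 to 17836986) had 48.5, 44.2 and 77.4 CPM in oxldl_siMCT4 libraries, against 39.3, 42.7 and 40.3 CPM in oxldl libraries. The groups do not overlap, yet library 3 is far above libraries 1 and 2, and the log2 change was 0.48 (SE 0.197, adjusted p = 0.0928). SREBF1 was called higher without oxldl_siMCT4 replicate 2 (0.65, adjusted p = 0.0345) and without replicate 3 (0.21, adjusted p = 0.0264), and for library 3 alone the log2 change was 0.94. DESeq2 called it higher as well (0.49, adjusted p = 0.0149), as did edgeR with the correction for GC content (0.94, adjusted p = 7.51e-05). After that correction the log2 ratios of libraries 1, 2 and 3 were 0.90, 0.81 and 1.08. SREBF1 was not called in 11 of the 18 alternative settings. Among these were the fits without oxldl_siMCT4 replicate 1 (adjusted p = 0.0789) and without oxldl replicate 1 (0.208), 2 (0.164) or 3 (0.212). RAI1, which overlaps SREBF1 on the opposite strand, had 866, 987 and 1858 counts in oxldl_siMCT4 libraries, against 1902, 1835 and 1622 counts in oxldl libraries, and its part in the SREBF1 counts was not tested.

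SCAP had 37.5, 37.7 and 44.1 CPM in oxldl_siMCT4 libraries, against 52.1, 50.8 and 49.6 CPM in oxldl libraries (log2 change -0.35, SE 0.0756, adjusted p = 0.00783). The groups do not overlap, but SCAP lost its call in 5 of the 18 alternative settings. Among these were the correction for GC content (-0.21, adjusted p = 0.0544) and limma on TPM values (-0.15, adjusted p = 0.199). STARD4, a carrier of cholesterol between membranes, had 88.0, 96.2 and 101 CPM in oxldl_siMCT4 libraries, against 113, 116 and 109 CPM in oxldl libraries (log2 change -0.24, SE 0.0612, adjusted p = 0.0167). All oxldl_siMCT4 values lie below the oxldl values, but the call was lost without oxldl_siMCT4 replicate 1 (adjusted p = 0.074) or 2 (0.059) and without oxldl replicate 1 (0.0794) or 2 (0.0939). STARD4 lost its call in 9 of the 18 alternative settings, also by limma on TPM values (-0.04, adjusted p = 0.686). STARD4-AS1, which overlaps it on the opposite strand, had 189, 211 and 258 counts in oxldl_siMCT4 libraries, against 666, 617 and 555 counts in oxldl libraries, and its part in the STARD4 counts was not tested. INSIG1, the sterol-dependent retention protein, had 156, 156 and 166 CPM in oxldl_siMCT4 libraries, against 178, 171 and 161 CPM in oxldl libraries. These values overlap (log2 change -0.09, SE 0.0529, adjusted p = 0.214), although INSIG1 was called lower after the correction for GC content (-0.21, adjusted p = 0.0372). MBTPS1, the first protease that cuts SREBPs, had a log2 change of 0.06 (SE 0.0502, adjusted p = 0.386), though limma on TPM values called it higher (0.25, adjusted p = 0.0161).

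Of the fatty acid enzymes SCD and FASN fell, FADS2 rose, and ACLY, ACACA, FADS1 and ELOVL6 did not pass. SCD, the stearoyl-CoA desaturase that makes monounsaturated fatty acids (ENSG00000099194, GRCh38 chromosome 10, 100347233 to 100364826), had 3880, 3900 and 4070 CPM in oxldl_siMCT4 libraries 1, 2 and 3, against 6140, 6250 and 6020 CPM in oxldl libraries. The spread within each group is small beside the gap, and the change was 0.644-fold (log2 change -0.64, SE 0.0371, adjusted p = 1.58e-05). FASN, fatty acid synthase (ENSG00000169710, GRCh38 chromosome 17, 82078338 to 82098294), had 215, 179 and 459 CPM in oxldl_siMCT4 libraries, against 723, 667 and 625 CPM in oxldl libraries. All oxldl_siMCT4 libraries are below all oxldl libraries, and library 3 is again apart from the other two. The log2 change was -1.24 (SE 0.326, adjusted p = 0.0191). It was -1.74 without oxldl_siMCT4 replicate 3 (adjusted p = 3.29e-06) and -0.61 with the correction for GC content (adjusted p = 0.00251), and for library 3 alone it was -0.53. The call was lost without oxldl_siMCT4 replicate 1 (adjusted p = 0.0708) and without oxldl replicate 1 (0.0689), 2 (0.0608) or 3 (0.0541), where the log2 change lay between -1.29 and -1.05.

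FADS2, the desaturase that opens the synthesis of polyunsaturated fatty acids (ENSG00000134824, GRCh38 chromosome 11, 61792980 to 61867354), had 112, 107 and 104 CPM in oxldl_siMCT4 libraries, against 76.5, 83.0 and 83.7 CPM in oxldl libraries. The groups do not overlap, and FADS2 rose 1.33-fold (log2 change 0.41, SE 0.0545, adjusted p = 0.000873), a call that held in all 18 alternative settings. FADS1, a desaturase of the same pathway, overlaps FADS2 on the opposite strand, and FEN1 overlaps it on the same strand, so that part of the FADS2 counts is uncertain. FADS1 had 104, 103 and 93.2 CPM in oxldl_siMCT4 libraries, against 100, 106 and 101 CPM in oxldl libraries, with no clear order between the groups (log2 change -0.03, SE 0.0581, adjusted p = 0.686). ACLY, which supplies cytosolic acetyl-CoA to both arms, had 271, 277 and 242 CPM in oxldl_siMCT4 libraries, against 273, 272 and 256 CPM in oxldl libraries (log2 change -0.02, SE 0.0608, adjusted p = 0.804). ACACA, the carboxylase that makes malonyl-CoA, had a log2 change of -0.11 (SE 0.0599, adjusted p = 0.17), and was called lower after the correction for GC content (-0.22, adjusted p = 0.0114). ELOVL6, which elongates saturated chains, was barely detected, with 41, 89 and 73 counts in oxldl_siMCT4 libraries and 36, 58 and 36 counts in oxldl libraries. Its log2 change of 0.55 (SE 0.355, adjusted p = 0.257) was not distinguishable from 0 at this depth.

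**Figure D3:**
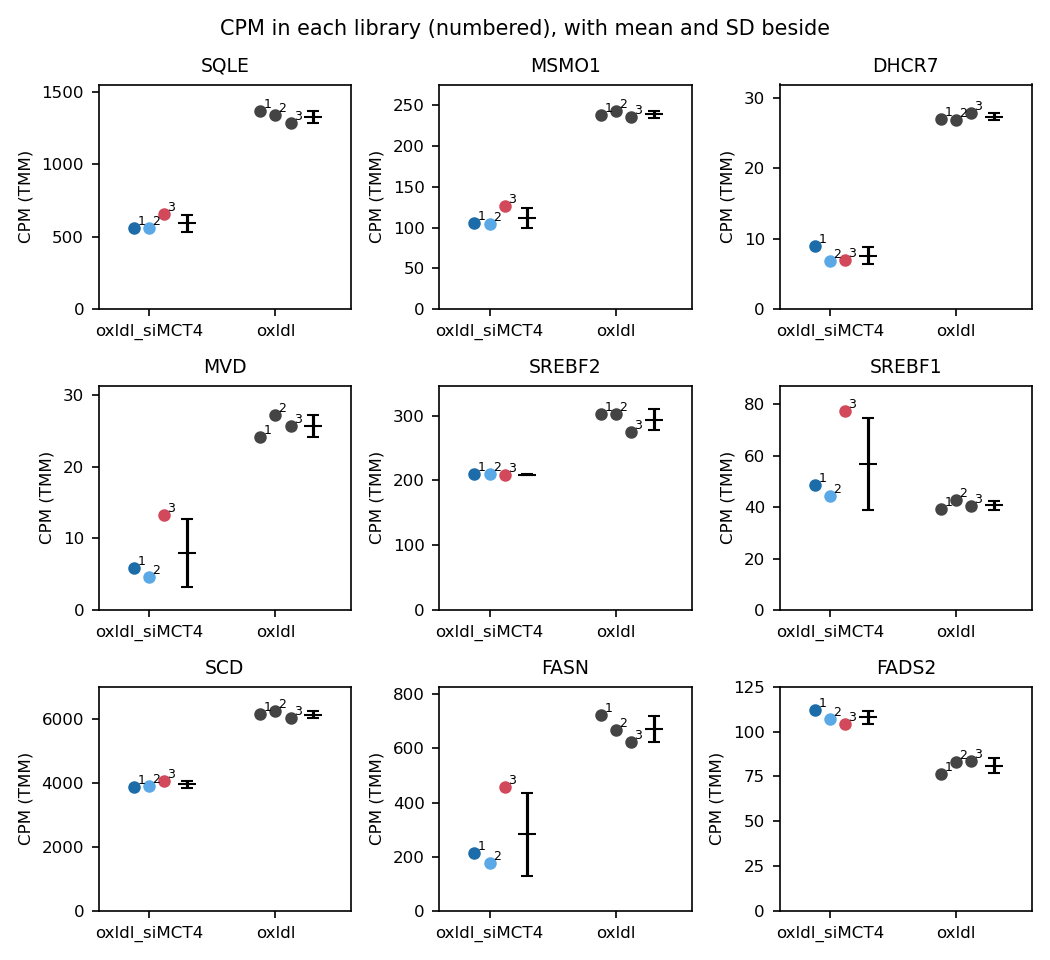
CPM with TMM scaling (vertical axes, from 0) of 9 genes in oxldl_siMCT4 libraries 1 to 3 (left) and oxldl libraries 1 to 3 (right); the bars beside the points give mean and SD. For SQLE, MSMO1, DHCR7, SREBF2 and SCD the spread within the groups is small beside the gap. For MVD (13.3 CPM), SREBF1 (77.4 CPM) and FASN (459 CPM) library 3 stands far above the other oxldl_siMCT4 libraries.

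Among genes of 60% to 64% GC with a mean log2 CPM above 2, the median log2 ratio to the oxldl mean was -0.41, -0.45 and -0.18 in oxldl_siMCT4 libraries 1, 2 and 3. Among such genes of 40% to 45% GC it was 0.07, 0.06 and 0.08. The medians of oxldl libraries lay between -0.03 and 0.05 in every GC class, but each is a ratio to the mean of these same libraries. That draws them towards 0. SQLE (40.8% GC), MSMO1 (38.1%), CYP51A1 (40.6%) and SC5D (38.6%) lie at the GC-poor end, and their log2 changes with the correction were -1.29, -1.23, -0.74 and -0.68. With the correction 13 sterol enzymes were called lower and 0 higher, against 21.9% and 19.1% of all genes tested, and the median log2 change was -0.66. The fatty acid enzymes then had a median of -0.05, with 3 called lower and 1 higher.

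**Figure D4:**
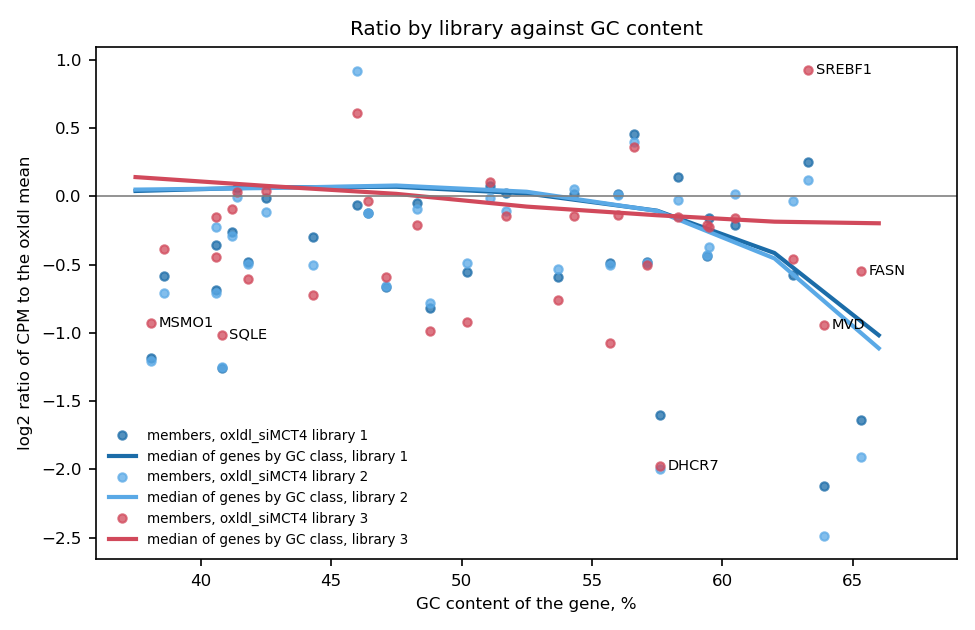
Log2 ratio of CPM to the oxldl mean (vertical axis) against GC content of the gene in % (horizontal axis); points are the 33 genes in each oxldl_siMCT4 library, and lines join the medians of genes with a mean log2 CPM above 2 in each GC class. The lines of libraries 1 and 2 drop to -1.02 and -1.11 in the class of 64% GC or more and that of library 3 to -0.20, while SQLE and MSMO1 lie low at the GC-poor end in all 3 libraries.

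Compared per length, SCD had the highest level of the set, with 727 ± 17.7 FPKM in oxldl_siMCT4 and 1050 ± 30.8 FPKM in oxldl libraries (SD, n = 3 each). SQLE came next, with 133 ± 12.8 FPKM in oxldl_siMCT4 and 278 ± 10.3 FPKM in oxldl libraries. Within oxldl libraries MSMO1 (75 ± 2.15 FPKM), FASN (64.5 ± 4.96 FPKM) and CYP51A1 (51.0 ± 1.74 FPKM) followed, and the levels of MSMO1 and FASN differed by more than their spread. MVK (0.67 ± 0.0746 FPKM) and ELOVL6 (0.0805 ± 0.0258 FPKM) had the lowest levels there. The summed level of the 20 sterol enzymes was 389.7, 385.1 and 410.2 FPKM in oxldl_siMCT4 libraries 1, 2 and 3, against 645, 654 and 631.8 FPKM in oxldl libraries. Of these sums SQLE alone gave 125, 126 and 148 FPKM in oxldl_siMCT4 libraries, against 285, 282 and 266 FPKM in oxldl libraries. For the 7 fatty acid enzymes, of which SCD makes up most, the summed level was 816.3, 815.9 and 865.3 FPKM in oxldl_siMCT4 libraries, against 1190, 1217 and 1147 FPKM in oxldl libraries. The sums of both arms were thus lower in every oxldl_siMCT4 library, although the median log2 change of the fatty acid enzymes was near that of all genes.

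Other genes of the same pathways went both ways, with 13 of 45 tested called higher, 12 lower and 20 not called, against 20.6% higher and 20.8% lower among all genes tested. Limma on TPM values called 17 of them higher and 8 lower. Of 11 further regulators 3 rose and 5 fell (median log2 change -0.25). INSIG2, the second retention protein, had 21.5, 21.7 and 20.9 CPM in oxldl_siMCT4 libraries, against 11.7, 13.1 and 11.1 CPM in oxldl libraries (log2 change 0.84, SE 0.0872, adjusted p = 0.000255). MBTPS2, the second protease that releases SREBPs, had 41.6, 43.4 and 43.2 CPM in oxldl_siMCT4 libraries, against 72.3, 73.8 and 67.7 CPM in oxldl libraries (log2 change -0.74, SE 0.0548, adjusted p = 4.9e-05). The groups of both genes are well apart. ERLIN1 rose (log2 change 0.55, adjusted p = 0.000541) and ERLIN2 fell (log2 change -0.42, adjusted p = 0.000692); they encode partner proteins of the endoplasmic reticulum that bind cholesterol.

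Of 16 tested sterol and isoprenoid genes outside the set 5 rose and 3 fell (median log2 change 0.08), and with the correction for GC content 3 rose and 3 fell (median -0.01). RDH11, a retinal reductase, rose (log2 change 0.81, adjusted p = 4.96e-05), as did DHDDS (0.76, adjusted p = 5.74e-05) and PDSS2 (0.35, adjusted p = 0.00239), which build the isoprenoid chains of dolichol and ubiquinone. TMEM97, a sterol-regulated membrane protein, fell (log2 change -1.10, adjusted p = 0.000341). Of 18 tested fatty acid genes outside the set 5 rose and 4 fell (median log2 change -0.04, and 0.04 with the correction for GC content). ME1, malic enzyme, a source of NADPH for lipid synthesis, had 65.5, 65.7 and 66.8 CPM in oxldl_siMCT4 libraries, against 204, 209 and 203 CPM in oxldl libraries. These values are far apart with little spread (log2 change -1.64, SE 0.0404, adjusted p = 3.91e-07). ACSS2, which activates acetate to acetyl-CoA, fell (log2 change -0.92, adjusted p = 0.00011), as did ACSL3, a long-chain acyl-CoA synthetase (-0.44, adjusted p = 0.000192), while the elongase ELOVL5 rose (0.42, adjusted p = 0.000401). The 12 genes named from these lists kept their direction and call in all 18 alternative settings. They were picked for the smallest adjusted p in these same data, which favours that outcome. Of the other called genes of these lists, some lost their call with the correction for GC content and some kept it.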

How the data were processed

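Polyadenylated RNA of 6 libraries was converted with dUTP and sequenced from both ends, per the labels' protocols. Cutadapt 1.9, HISAT2 2.2.1 and GRCh38 are named in the submitters' processing notes. The sources used here do not name the tool, annotation or strand setting of the counting. The table deposited by the authors has raw counts and FPKM per gene in 12 columns, per the file headers. Even numbers took 58.7% to 60.9% of all counts between 2 and 41, so a fragment may count as a pair of reads.

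The 33 genes and the further lists were chosen with earlier results of these data known. edgeR 4.0.16 (R 4.3.3) was run on the deposited counts with TMM scaling, filterByExpr (smallest count 10, smallest total 15) and group alone, two-sided. SE is the log2 change over the root of F. FPKM was used as the authors deposited it, for levels. GC content is the median over a gene's GENCODE transcripts (known for 96.8% of tested genes), and its correction is an offset per library from a spline (5 degrees of freedom). Named genes are the 33, SLC16A3, and of each further list up to 4 called genes with the smallest adjusted p. The 18 alternatives were DESeq2 1.42.0, RLE scaling, no filter, limma 3.58.1 on log2(FPKM + 1), with no filter, with 0.1 added and on TPM, corrections for GC content and for GC content and length, a replicate block with and without the GC correction, leaving out each library, and oxldl_siMCT4 library 3 alone, which was added after the data were seen and in which that library is assumed to vary like the oxldl libraries. The fits were tested on simulated counts.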

Additional observations from a re-analysis of the deposited data

How the results depend on the processing

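Of the 19 genes of the set that were called, 13 to 19 kept call and direction over the 18 alternatives; 10 to 13 sterol enzymes were called lower, and their median stayed between -0.67 and -0.33. Leaving out each library gave 3409 to 4894 genes higher and 3160 to 4814 lower, 10 to 12 sterol, 2 to 3 regulator and 1 to 2 fatty acid genes lower, 0 to 1 regulators higher, and a sterol minus fatty acid median of -0.55 to -0.47. On TPM 5816 genes were higher and 2651 lower, so 68.7% of calls were higher instead of 49.8%; 1 sterol enzyme (GGPS1) and 1 regulator (MBTPS1) were then higher and 1 regulator lower. With limma on log2(FPKM + 1) 59.4% of calls were higher, and 61.1% with no filter, where 1 regulator and 1 fatty acid enzyme were lower. SREBF1 was the 1 regulator called higher by DESeq2, with the GC correction, with GC and length, with the replicate block and GC, and with oxldl_siMCT4 library 3 alone (assumed to vary like the oxldl libraries), where 1 regulator was lower. The sterol minus fatty acid median was -0.61 with GC, -0.60 with GC and length, -0.61 with the replicate block and GC, and -0.39 with library 3 alone.

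Signs turned only in genes that had not been called. LSS was 0.0095 by DESeq2 and 0.0043 with RLE. By limma on log2(FPKM + 1), with or without the filter, IDI1 was 0.0793, LSS 0.083, NSDHL 0.0316, INSIG1 0.0187, ACLY 0.0836 and FADS1 0.0674. With 0.1 added they were 0.0823, 0.0962, 0.0338, 0.0191, 0.0852 and 0.0739. On TPM MVK was 0.0628, IDI1 0.1734, LSS 0.1823, NSDHL 0.1242, INSIG1 0.111, ACLY 0.177, ACACA 0.0844 and FADS1 0.1629. With GC MVK was 0.1204, GGPS1 -0.0953, LSS 0.0691 and TM7SF2 0.1283. With GC and length MVK was 0.1162, PMVK 0.11, GGPS1 -0.1098, LSS 0.0536 and TM7SF2 0.1148. With the replicate block and GC MVK was 0.1205, GGPS1 -0.0953, LSS 0.0676 and TM7SF2 0.1072. IDI1 was 0.0597 with library 3 alone. Leaving out single libraries, IDI1 ran from -0.0368 to 0.0389, LSS from -0.0664 to 0.0838, ACLY from -0.0522 to 0.06 and FADS1 from -0.0464 to 0.04. The cause was not tested.

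Libraries of one replicate number did not deviate together (correlations over 11075 genes of -0.10, 0.07 and -0.15), and 0 of 3 oxldl_siMCT4 libraries correlated best with their own number. With the replicate block 3341 genes were higher and 3580 lower, with 11 sterol enzymes lower; HSD17B7 (adjusted p = 0.0952) and LBR (0.0625) lost their calls. Low counts limit ELOVL6 most.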
